A study of Mus musculus with 13 samples.

Results

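The transcripts described here are those of the exocrine pancreas, measured in cells of the islet lineage: the digestive enzymes, other zymogen granule and secreted proteins, and the transcription factors of acinar cells, the cells that make pancreatic juice. The set was a list of 33 named genes, chosen for their known function. Of these, 30 had a probe on the array, 1 of them (Spink3) under the newer symbol Spink1, and all 30 passed the filter on dim probes, out of 10382 genes that passed in all. Prss1, Pnlip and Amy2b had no probe under their symbols and are not described. The 30 genes comprised 20 digestive enzymes (with colipase counted among them), 6 granule or secreted proteins that are not enzymes, and 4 transcription factors.

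RNA of C57BL/6 mouse cells was hybridised to 13 single-colour Illumina bead arrays. Purified islet progenitors, with pancreas as their source, were sampled on 3 days of differentiation, where day 0 gave 4 arrays, day 1 gave 3 and day 4 gave 2. ESC cells of the line W9.5 (2 arrays) were the negative control and adult islets, also of pancreas (2 arrays), the positive control. The series states molecular mechanisms of differentiation as its question, and the labels give neither the purification marker, the culture conditions nor an age. They also do not say that replicates came from separate cultures or animals. Every p-value therefore rests on the spread of arrays within groups, pooled over all 5 groups, and that spread may be technical. Levels are deposited log2 intensities, a probe counted as above background when its value exceeded 7.24, and differences are log2 ± SE from limma fitted to all 13 arrays and 10382 genes. A gene was called, and is said to have risen or fallen, at a Benjamini-Hochberg adjusted p under 0.05. Levels of different genes come from different probes and are not set against each other.

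The groups carried the transcripts of their labels. All 7 pluripotency markers were above background on both ESC arrays, and 10 or 11 of 11 islet endocrine markers were above background on each of the 11 pancreatic arrays. Between 44.1% and 46.4% of all probes were above background on each array.

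Acinar cells store most of their enzymes as inactive zymogens in granules and release them into the ducts, and trypsin and its relatives are activated once they reach the gut. Transcription of these genes is driven by PTF1, a complex of the basic helix-loop-helix factor Ptf1a with a common partner and Rbpjl, which in mature acinar cells takes the place of its relative Rbpj. PTF1 binds a bipartite site made of an E-box and a TC-box, and Ptf1a is also needed in the early pancreatic progenitors from which islet, duct and acinar cells all descend. Bhlha15 (Mist1) shapes the secretory apparatus and the nuclear receptor Nr5a2 acts beside PTF1 on enzyme genes.

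Because PTF1 acts through short sequence elements, promoters of the members were searched for these elements, and a selection is printed. RefSeq promoters of the build GRCm38.p6, from 250 bases before to 50 bases after the start, matched 23 of the members (25 promoters). They are printed 5′ to 3′ on the strand of the gene, with each E-box (CACCTG, or CAGGTG on the other strand) and each TC-box (TTTCCC, or GGGAAA) in capitals. Cela2a and Gp2 rose from day 0 to day 4, Rbpjl fell, and Cela1 and Cel had negative differences over those days and had the 2nd and 4th highest differences of all genes between day 4 and adult islets.
Cela2a (chr4:141825956-141826255, minus strand): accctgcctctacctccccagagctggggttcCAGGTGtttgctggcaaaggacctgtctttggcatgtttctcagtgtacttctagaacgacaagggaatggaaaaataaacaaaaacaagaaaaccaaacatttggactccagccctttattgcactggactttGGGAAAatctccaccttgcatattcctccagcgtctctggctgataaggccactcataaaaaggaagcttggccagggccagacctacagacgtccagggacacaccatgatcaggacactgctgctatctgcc
Gp2 (chr7:119459223-119459522, minus strand): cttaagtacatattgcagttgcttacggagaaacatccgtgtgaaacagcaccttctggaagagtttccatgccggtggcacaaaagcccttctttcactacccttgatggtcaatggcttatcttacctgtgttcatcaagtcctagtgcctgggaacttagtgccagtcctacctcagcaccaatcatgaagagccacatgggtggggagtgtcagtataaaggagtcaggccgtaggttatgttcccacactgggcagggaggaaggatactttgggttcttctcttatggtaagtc
Rbpjl (chr2:164402944-164403243, plus strand): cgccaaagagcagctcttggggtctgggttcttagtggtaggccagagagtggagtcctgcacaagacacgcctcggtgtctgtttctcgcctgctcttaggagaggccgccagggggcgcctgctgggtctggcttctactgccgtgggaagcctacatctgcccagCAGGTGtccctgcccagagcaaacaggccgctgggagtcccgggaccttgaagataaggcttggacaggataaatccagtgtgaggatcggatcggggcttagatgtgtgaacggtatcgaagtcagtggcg
Cela1 (chr15:100687871-100688170, minus strand): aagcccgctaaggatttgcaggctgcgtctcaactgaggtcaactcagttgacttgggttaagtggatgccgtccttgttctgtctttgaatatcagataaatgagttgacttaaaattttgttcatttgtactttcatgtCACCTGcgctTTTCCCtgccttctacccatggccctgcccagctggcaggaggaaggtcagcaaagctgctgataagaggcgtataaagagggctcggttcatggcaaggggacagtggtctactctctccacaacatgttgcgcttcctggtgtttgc
Cel (chr2:28563354-28563653, minus strand): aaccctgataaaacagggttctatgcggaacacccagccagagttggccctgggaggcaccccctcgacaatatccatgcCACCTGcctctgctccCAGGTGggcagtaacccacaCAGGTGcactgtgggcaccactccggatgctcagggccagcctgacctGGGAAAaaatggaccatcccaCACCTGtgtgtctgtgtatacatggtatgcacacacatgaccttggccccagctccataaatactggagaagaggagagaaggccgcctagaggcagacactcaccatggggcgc
The printed promoters of Cela2a and Cela1 held 1 E-box and 1 TC-box each, that of Cel 4 E-boxes and 1 TC-box, that of Rbpjl 1 E-box, and that of Gp2 neither. Cela1 and Cel were not called between day 0 and day 4. Of the other genes called over those days, Ptf1a held neither motif in its promoter, which is not printed, and Try5 matched no promoter. Over the 25 member promoters, 13 held an E-box (52.0%), against 20.2% of 32851 mouse promoters of the same length, and 8 held a TC-box (32.0% against 25.2%). Both motifs occurred somewhere in the window in 5 of the 25, and in 4.86% of all mouse promoters. The distance between them was not limited. In the printed promoter of Cela2a they lie far apart, and in that of Cela1 they lie close together. A pair counted in this way therefore need not form the bipartite site of PTF1, and spacing was not tested. Both strands were searched, and the 2 motifs can share at most 1 base where they meet. A match describes the letters and is no bound site, and the absence of a match says only that these letters are not in this window.

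**Figure D1:**
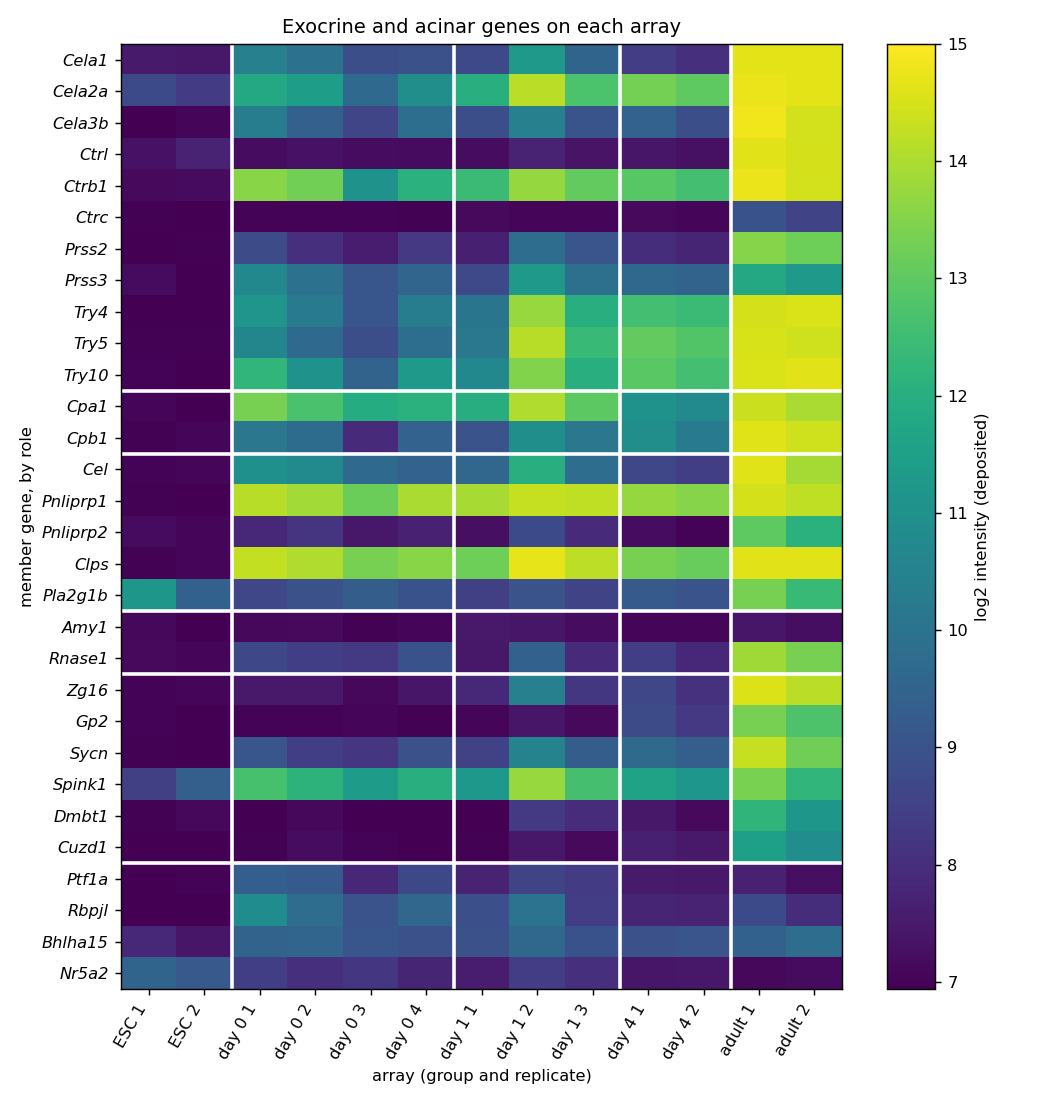
Deposited log2 intensity (colour scale) of the 30 exocrine and acinar genes (rows, by role) on the 13 arrays (columns, by group and replicate number). Most enzymes are at background in ESC cells, intermediate and uneven across the progenitor arrays, and near the top of the scale in adult islets, where Ptf1a, Rbpjl and Nr5a2 are dim.

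Purified progenitors at day 0 already carried most of these transcripts. Colipase (Clps), the cofactor that anchors lipase to fat droplets, was 6.97 and 7.06 on the ESC arrays and 14.26, 14.03, 13.35 and 13.56 at day 0. Pnliprp1, a lipase relative with little lipase activity of its own, was 7.00 and 6.95 in ESC cells and 14.13, 13.88, 13.19 and 13.99 at day 0. Chymotrypsinogen B1 (Ctrb1), the precursor of the protease chymotrypsin, was 7.14 and 7.18 in ESC cells and 13.57, 13.30, 11.03 and 12.08 at day 0. For all 3 genes every day 0 array lay far above both ESC arrays, which were at background. Against the background level the day 0 mean was at least 94.4-fold higher for Clps, at least 94.4-fold for Pnliprp1 and at least 38.3-fold for Ctrb1 (limma adjusted p = 7.51e-08, 2.98e-09 and 2.60e-05). Carboxypeptidase A1 (Cpa1), which trims the ends of peptides, was at least 38.7-fold higher and the trypsinogen Try10 at least 13.9-fold. In these bulk samples, fewer cells of a type and less RNA per cell cannot be told apart, here or in any comparison that follows.

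Of the 30 genes, 20 were higher at day 0 than in ESC cells and 2 were lower, where 49.3% of all genes were called, 26.5% higher and 22.8% lower. Among the 20 enzymes 15 were higher, 1 was lower and the median difference was 2.48, beside 0.05 over all genes tested. The groups did not overlap for 25 of the 30, where 58.1% of all genes had groups apart. All 3 of Ptf1a, Rbpjl and Bhlha15 were among the higher genes, at least 2.93-fold, at least 5.98-fold and by 1.64 ± 0.25. The calls of Cela1, Try5, Rnase1 and Sycn were lost without either ESC array, and that of Prss2 in 10 of the 13 omissions of an array (adjusted p of up to 0.171). The secreted phospholipase Pla2g1b was 11.20 and 9.45 in ESC cells and 8.65 to 9.32 at day 0, a fall by 1.35 (SE 0.41, adjusted p = 0.0182) that was not called without ESC replicate 1 (adjusted p = 0.302). Nr5a2, which in mouse embryonic stem cells helps to maintain Pou5f1, was 9.53 and 9.18 in ESC cells and 8.43, 8.05, 8.21 and 7.77 at day 0, a difference of -1.24 ± 0.23 (adjusted p = 0.000876).

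Not all of the programme was present at day 0. The chymotrypsin-like protease Ctrl was 7.22, 7.34, 7.20 and 7.19 at day 0, with 1 of 4 arrays above background. The granule membrane glycoprotein Gp2, the mucin-like secreted protein Dmbt1, the granule membrane protein Cuzd1, chymotrypsin C (Ctrc) and the amylase Amy1 were above background on none of the 4. The other members were above background on 3 or all 4 of them.

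The enzymes were uneven between arrays of the same group, and they moved together. Among the 17 enzymes above background on every day 0 array, replicate 1 was the highest in 14 and replicate 3 the lowest in 15. Over the 7496 genes that met the same condition, replicate 1 was the highest in 16.6% and replicate 3 the lowest in 21.7%. At day 1, replicate 2 was the highest and replicate 1 the lowest in all of 17 enzymes, against 45.0% and 40.1% of 7499 genes. The median SD of an enzyme was 0.72 at day 0 and 1.05 at day 1, where the median gene had 0.23 and 0.20. It was 0.18 at day 4 and 0.19 in adult islets, where the median gene had 0.063 and 0.092.

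The median level of the 20 enzymes on each array shows this pattern. It was 7.03 and 7.04 in ESC cells, then 10.54, 9.86, 8.98 and 9.51 at day 0, 8.94, 11.29 and 9.86 at day 1, 9.56 and 9.26 at day 4, and 14.49 and 14.32 in adult islets. The 3 progenitor groups overlapped, and both adult islet arrays stood above every progenitor array. The median of the 4 transcription factors was 9.45, 9.39, 8.60 and 8.82 at day 0, 8.30, 9.13 and 8.38 at day 1, 7.66 and 7.60 at day 4, and 8.23 and 7.62 in adult islets. Here the day 4 arrays lay below every day 0 and day 1 array, and the adult arrays did not lie above the progenitors of day 0 and day 1.

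**Figure D2:**
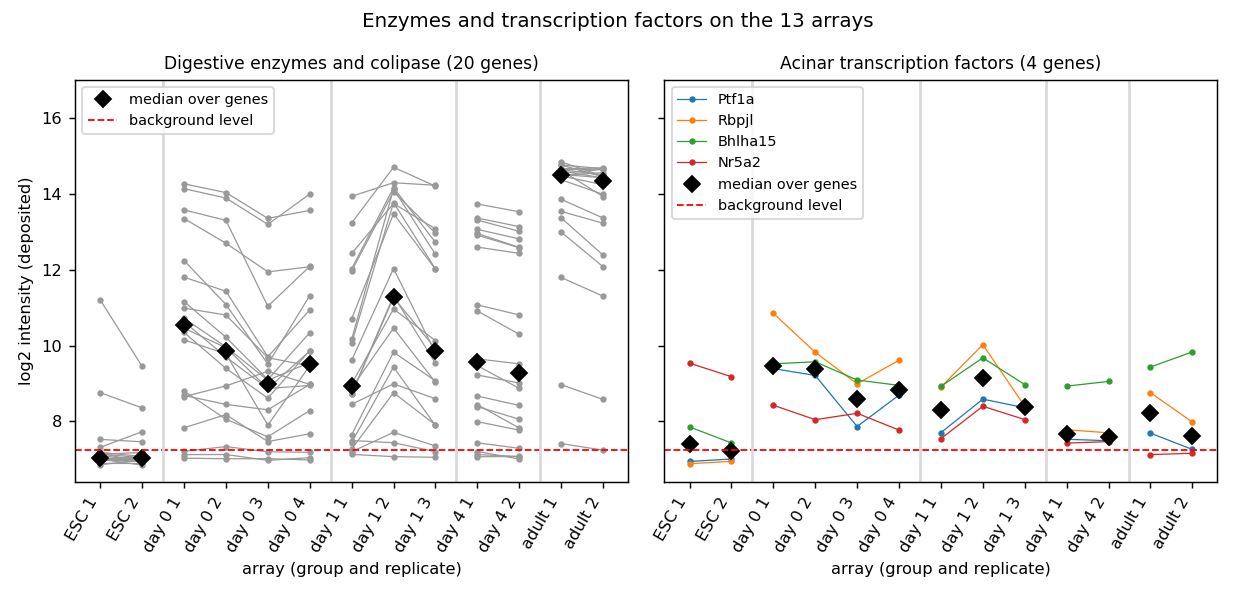
Deposited log2 intensity (y axis) on each of the 13 arrays (x axis) for the 20 digestive enzymes (left) and the 4 acinar transcription factors (right). Lines join the values of a gene within a group, diamonds are the median over the genes of the panel and the dashed line is the background level of 7.24. The enzyme median is 14.49 and 14.32 in adult islets against 8.94 to 11.29 on the progenitor arrays, while the factor median is 7.60 to 9.45 on all pancreatic arrays.

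Blood and mesenchyme markers also varied across the day 1 arrays. The summed linear intensity of 4 erythroid markers was 2756 on day 1 replicate 1, 27137 on replicate 2 and 33596 on replicate 3, with 1, 2 and 2 of the 4 above background and Hbb-b2 and Slc4a1 above it on none. That of 9 mesenchyme markers was 2292, 14066 and 9028, with 3, 9 and 8 of the 9 above background. On the day 0 arrays the erythroid sum ranged from 12084 to 32295 and the mesenchyme sum from 1983 to 7471, with 3 or 4 of 4 and 6 to 9 of 9 above background. Their part in the enzyme levels was not tested.

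Between day 0 and day 1, none of the exocrine genes was called by limma, while 4.37% of all genes were (2.00% higher and 2.37% lower). At an unadjusted p under 0.05, 6 of the 30 were higher and 0 lower, beside 881 higher and 946 lower of all 10382 genes. The trypsinogen Try5 came to 10.16, 14.13 and 12.40 at day 1 after 10.63, 9.70, 8.87 and 9.85 at day 0, a difference of 2.47 ± 0.72 (adjusted p = 0.0845). The elastase Cela2a, a protease that cuts elastic and other fibrous proteins, came to 12.02, 14.16 and 12.72 after 11.80, 11.43, 9.70 and 10.94, a difference of 2.00 ± 0.52 (adjusted p = 0.058). The Cela2a arrays did not overlap between the days and the Try5 arrays did. Among the 30 genes 5 had groups that did not overlap, where 15.4% of all genes had.

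The median difference from day 0 to day 1 was 0.31 for the enzymes, 0.62 for the granule and secreted proteins and -0.35 for the transcription factors, beside 0.00 over all genes tested. These values depended on single arrays. Without day 1 replicate 1, 6 genes were called higher, namely Cela2a, Prss2, Try4, Try5, Zg16 and Dmbt1. Their differences were then 2.47, 1.26, 2.69, 3.50, 1.97 and 1.16. With day 1 replicate 2 and day 0 replicate 3 both left out, 0 were called, and the difference was 1.22 for Try5 and 0.98 for Cela2a. For most enzymes the omitted arrays were the extremes of their day. Leaving out day 1 replicate 1, the lowest, had to raise the differences. Leaving out the highest day 1 array and the lowest day 0 array had to lower them. The direction of both outcomes was therefore set by the choice of arrays.

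A technical feature of the arrays runs across these groups. The lowest values on 4 arrays (day 0 replicates 3 and 4, day 1 replicates 2 and 3) lay between 6.88 and 6.90, and those of the other 9 between 6.73 and 6.81. The labels name no batch that matches this split. Within the 4 arrays with the raised lower end, 19 of 20 enzymes were higher at day 1 than at day 0, with a median difference of 1.31 and 5 called: Try5 (3.90 ± 0.53), Try4 (3.17 ± 0.56), Cela2a (3.12 ± 0.48), Ctrb1 (1.85 ± 0.33) and Clps (0.99 ± 0.18). Within the other arrays of these days, 1 at day 1 and 2 at day 0, 17 of 20 were lower at day 1, with a median of -0.85 and 0 called. The difference between these 2 values was itself called for 0 of the 20 enzymes and 0 of all genes tested, and with the split as a block 0 enzymes were called. Among the factors Ptf1a had differences of 0.19 ± 0.25 in the first set and -1.60 ± 0.31 in the second. In the second set the single day 1 array is assumed to vary like the others. For most enzymes the first set held the lowest day 0 array (replicate 3) and the highest day 1 array (replicate 2). The second set held the highest day 0 array and the lowest day 1 array (replicate 1 of each day). The opposite signs of the 2 sets were therefore largely set by which arrays fell in each.

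**Figure D3:**
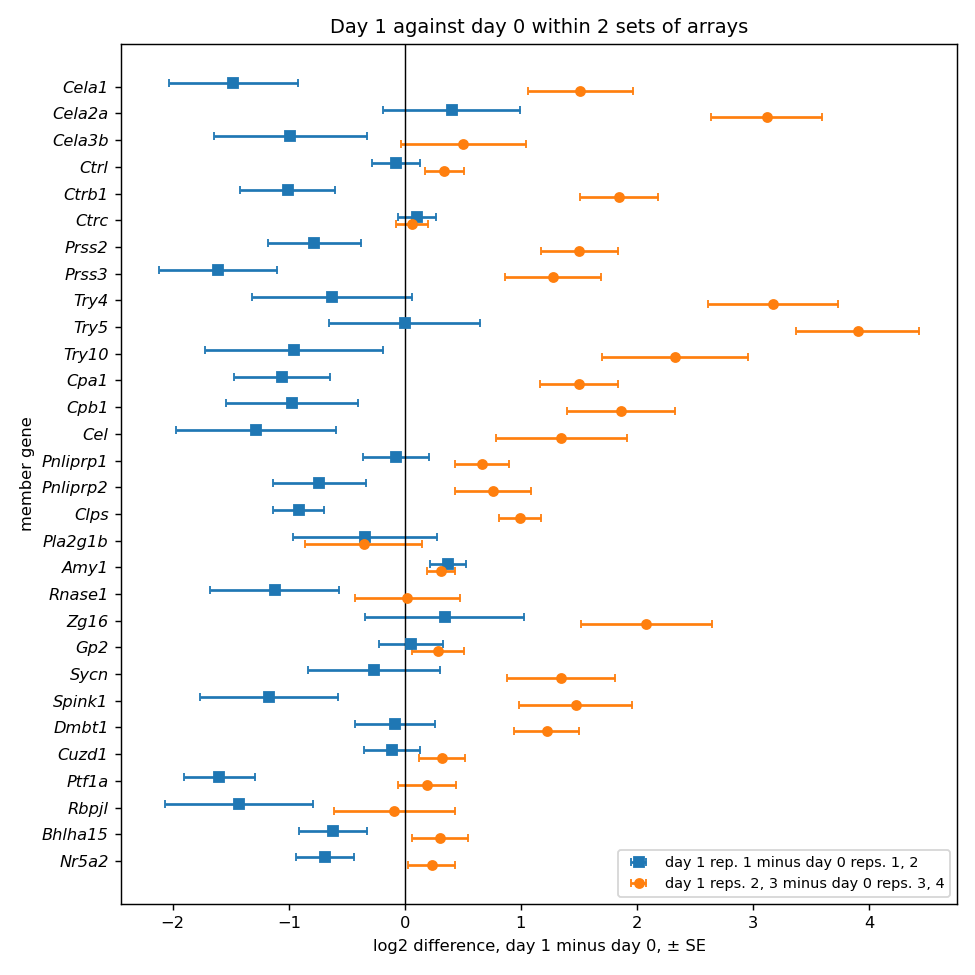
Log2 difference between day 1 and day 0 (x axis, with its SE as bars) of the 30 genes (y axis) within the 4 arrays whose lowest values lie between 6.88 and 6.90 (circles) and within day 1 replicate 1 and day 0 replicates 1 and 2 (squares). Enzymes lie mostly above 0 in the first set (19 of 20) and mostly below 0 in the second (17 of 20). For most enzymes the first set holds the lowest day 0 and the highest day 1 array, and the second set the opposite extremes.

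From day 0 to day 4, the trypsinogen Try5, the elastase Cela2a and the granule protein Gp2 rose, and the factors Ptf1a and Rbpjl fell. No enzyme fell, and the other 18 enzymes did not pass the test. In all, 3 of the 30 genes rose and 2 fell, where 5.39% of all genes rose and 6.05% fell. Among the 20 enzymes 10 had positive and 10 negative differences, and the median was -0.08 beside -0.03 over all genes. The arrays of the 2 groups did not overlap for 18 of the 30 genes, where the share over all genes was 43.9%.

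Try5 was 10.63, 9.70, 8.87 and 9.85 at day 0 and 13.06 and 12.81 at day 4. This was a rise of 3.17 ± 0.81, or 9.01-fold (limma adjusted p = 0.0298), the 4th highest difference of the 10382 genes. Both day 4 arrays stood above all 4 day 0 arrays. Its neighbour Try4 was 11.16, 10.22, 9.10 and 10.34 at day 0 and 12.59 and 12.43 at day 4 (2.31 ± 0.79, adjusted p = 0.0859). Try10 was 12.24, 11.08, 9.51 and 11.31 and then 12.95 and 12.58 (1.73 ± 0.73, adjusted p = 0.157). Neither passed the test, and in both the day 4 arrays lay above all day 0 arrays.

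Try4, Try5, Try10 and Prss3 lie next to each other on chromosome 6 and Prss2 lies further along the same cluster. These genes are close copies of each other, so a probe for a copy can take signal from the others, and their separate values are uncertain. Within the cluster the differences from day 0 to day 4 were of both signs, at -0.25 ± 0.58 for Prss3 and -0.30 ± 0.48 for Prss2. The test of the difference between copies was not made. Prss2 was 8.80, 8.06, 7.60 and 8.29 at day 0, 7.65, 9.82 and 9.07 at day 1, and 7.99 and 7.77 at day 4. Prss3 was 10.71, 9.96, 9.08 and 9.56 at day 0, 8.73, 11.26 and 9.92 at day 1, and 9.65 and 9.52 at day 4. In both the day 4 arrays lay inside the range of day 0.

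Cela2a was 11.80, 11.43, 9.70 and 10.94 at day 0 and 13.30 and 13.01 at day 4, a rise of 2.19 ± 0.59, or 4.56-fold (adjusted p = 0.0373). Its day 4 arrays lay above all those of day 0. The other elastases did not follow it. Cela1 went from 10.45, 9.94, 8.87 and 8.95 to 8.39 and 8.06 (-1.33 ± 0.61, adjusted p = 0.19), and Cela3b from 10.34, 9.40, 8.61 and 9.87 to 9.47 and 8.87 (-0.38 ± 0.49). The Cela1 arrays did not overlap between the days, with day 4 the lower.

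Carboxypeptidases had opposite signs. Cpa1 was 13.34, 12.69, 11.94 and 12.07 at day 0 and 11.07 and 10.81 at day 4, a difference of -1.58 ± 0.50 (adjusted p = 0.0665). Carboxypeptidase B1 (Cpb1), which removes basic end residues such as those that trypsin leaves, was 10.15, 9.78, 7.90 and 9.47 and then 10.91 and 10.29, a difference of 1.28 ± 0.60. Neither passed the test, and for both the groups did not overlap.

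Of the lipid enzymes, carboxyl ester lipase (Cel) was 10.99, 10.80, 9.68 and 9.46 at day 0 and 8.67 and 8.42 at day 4 (-1.69 ± 0.63, adjusted p = 0.111). Pnliprp2, a galactolipase, was above background on all 4 arrays of day 0 and on none of day 4 (7.21 and 7.01). A second Pnliprp2 probe read 7.51, 7.85, 7.03 and 7.20 at day 0, above background on replicates 1 and 2 only, and 7.19 and 7.05 at day 4. Clps and Pnliprp1 stayed bright, at 13.36 and 13.13 and at 13.73 and 13.52 at day 4, with differences of -0.55 ± 0.35 and -0.17 ± 0.22. A second, dimmer Clps probe read 13.59, 13.02, 11.86 and 12.64 at day 0 and 11.77 and 11.38 at day 4. Its day 4 arrays lay below all those of day 0, and it was not tested on its own.

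Among the granule and secreted proteins Gp2 came up from background. It was 7.03, 7.01, 7.04 and 6.99 at day 0, 7.07, 7.44 and 7.15 at day 1, and 8.82 and 8.28 at day 4. Against day 0 this was a difference of 1.53 ± 0.18 (adjusted p = 0.000658), at least 2.48-fold over the background level. Against day 1 it was 1.33 ± 0.19 (adjusted p = 0.0106), the only one of the 30 genes called between day 1 and day 4, where 1.55% of all genes were called. That call was lost without day 4 replicate 1 (1.06, adjusted p = 0.166). Both day 4 arrays were above every array of day 0 and day 1.

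The lectin Zg16, which binds the zymogen granule membrane, was 7.48, 7.48, 7.12 and 7.42 at day 0, then 7.82, 10.46 and 8.24, then 8.65 and 8.09 at day 4. Syncollin (Sycn), another granule protein, was 9.08, 8.42, 8.21 and 8.94 at day 0 and 9.72 and 9.37 at day 4. Neither difference passed the test, at 1.00 ± 0.55 and 0.88 ± 0.48. The trypsin inhibitor Spink1, which protects the gland from its own protease, had a difference of -0.69 ± 0.59.

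Dmbt1 and Cuzd1 were above background on some progenitor arrays only, and on none of day 0. Dmbt1 was 6.96, 8.31 and 7.97 at day 1 and 7.46 and 7.15 at day 4. Cuzd1 was 6.98, 7.47 and 7.16 at day 1 and 7.64 and 7.49 at day 4, with a difference from day 0 of 0.52 ± 0.17 (adjusted p = 0.0777). Both day 4 arrays of Cuzd1 were above background, as were 1 of 3 at day 1 and 0 of 4 at day 0.

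Between day 1 and day 4 1 of the 30 was higher and 8 were lower at an unadjusted p under 0.05, beside 736 higher and 861 lower of all 10382 genes, and 12 had groups that did not overlap (42.0% of all genes). Cpa1 had a difference of -2.05 ± 0.53 (adjusted p = 0.0888), Cel one of -1.94 ± 0.66 and Cela1 one of -1.63 ± 0.64. None of these 3 passed the test, and in each both day 4 arrays lay below all 3 arrays of day 1.

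Of the 4 transcription factors 2 fell from day 0 to day 4. Rbpjl was 10.85, 9.82, 8.99 and 9.61 at day 0, 8.90, 10.02 and 8.40 at day 1, and 7.78 and 7.70 at day 4. From day 0 to day 4 it fell by 2.08 (SE 0.49, 4.22-fold lower, adjusted p = 0.0222), and its 2 day 4 arrays lay below the other 7 progenitor arrays. Its second probe was at background on all 13 arrays, so the fall rests on a single probe. Ptf1a was 9.39, 9.21, 7.87 and 8.69 at day 0, 7.70, 8.59 and 8.36 at day 1, and 7.53 and 7.49 at day 4, a fall by 1.28 (SE 0.37, adjusted p = 0.0487) that also put day 4 below all earlier arrays. Nr5a2 had a difference of -0.67 ± 0.23 (adjusted p = 0.0834). Bhlha15 was 9.52, 9.57, 9.09 and 8.95 at day 0 and 8.93 and 9.05 at day 4 (-0.29 ± 0.25), groups that overlapped.

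The median over genes of the differences was -0.97 for the 4 factors and -0.08 for the 20 enzymes. A separate measure takes on each array the median level of the enzymes less that of the factors and averages it over the arrays of a group. This measure sums up levels of different probes and need not equal the gap between the median differences. It was 1.13 higher at day 4 than at day 0, and lay between 1.01 and 1.27 when any array of either group was left out. No test was made of it, since the members were chosen with results of these data known.

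Of these 5 calls only that of Gp2 held without each of the 13 arrays in turn. Rbpjl lost its call without either day 4 array. Cela2a lost it without day 0 replicate 3 or 4, day 1 replicate 3 or any day 4 or adult array, and Try5 without day 0 replicate 2, 3 or 4 or either day 4 array. Ptf1a lost it in 10 of the 13 omissions. Without day 1 replicate 2, 9 of the genes were called (5 higher, 4 lower), and without day 1 replicate 1, 8 (4 and 4). Without either day 4 array 1 was called, and without day 0 replicate 4, 2. With day 1 replicate 2 and day 0 replicate 3 both left out, 10 were called (5 higher, 5 lower), with Try4 (1.94, adjusted p = 0.0342), Cpa1 (-1.77, adjusted p = 0.0187) and Cel (-1.87, adjusted p = 0.02) among them. For most enzymes these 2 arrays were extremes of their day, so leaving them out also narrowed the spread.

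Handling-responsive and blood transcripts moved over the same days. Of 8 immediate early and heat shock genes, 6 fell from day 0 to day 4. Their summed linear intensity was 15808 to 28753 at day 0 and 2903 to 3378 at day 4, with 7 or 8 of 8 above background at day 0 and 5 of 8 at day 4 (not Fosb, Atf3 and Ier2). Of 4 erythroid genes 3 fell, from a sum of 12084 to 32295 to one of 544 to 557, with at most 1 of the 4 above background at day 4 (not Hbb-b2, Alas2 and Slc4a1). Their part in the exocrine differences was not tested.

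**Figure D4:**
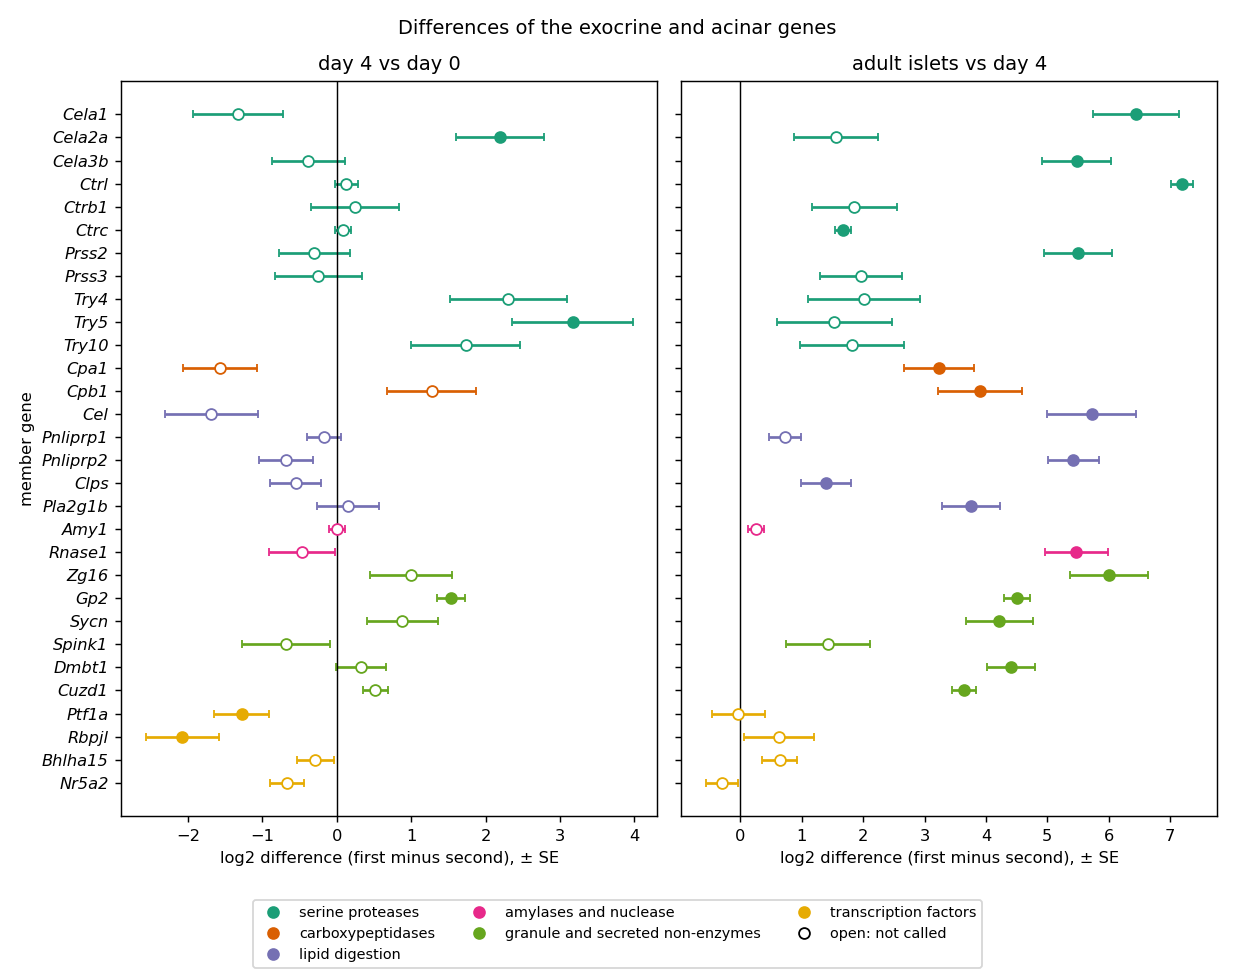
Log2 differences (x axis, points with SE bars) of the 30 genes (y axis, coloured by role) between day 4 and day 0 (left) and between adult islets and day 4 (right). Filled points were called at an adjusted p under 0.05 (5 on the left, 17 on the right). Enzymes lie on both sides of 0 on the left and all lie above 0 on the right, where the 4 transcription factors lie between -0.30 and 0.64.

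From day 4 progenitors to adult islets, 12 of the 20 enzymes rose and 0 fell, and 5 of 6 granule and secreted proteins rose. None of the 4 transcription factors was called, with 1 at an unadjusted p under 0.05. Together 17 of 30 rose and 0 fell, where 7.53% of all genes rose and 6.93% fell, and 29 of 30 had groups that did not overlap, where 70.9% of all genes had. The median difference was 2.62 for the enzymes, 4.32 for the granule and secreted proteins and 0.30 for the factors, beside -0.04 over all genes. Of the 20 genes with the highest differences among 10382, 10 were members, and the first 8 places were all theirs.

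Ctrl had the highest difference of all genes. It was 7.44 and 7.29 at day 4 and 14.63 and 14.49 in adult islets, a rise of 7.20 ± 0.18 (adjusted p = 2.83e-09). Its day 4 values lay close to the background level, and ESC cells gave 7.32 and 7.73, so no fold is given. On the 9 progenitor arrays Ctrl never exceeded 7.71, its value on day 1 replicate 2. Cela1 rose from 8.39 and 8.06 to 14.65 and 14.68 (6.44 ± 0.71, 86.9-fold, adjusted p = 0.000149). The adult arrays of both genes stood far above all progenitor arrays. Cela3b rose to 14.84 and 14.46 (5.48 ± 0.56) and the trypsinogen Prss2 to 13.53 and 13.22 (5.49 ± 0.55).

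Ctrc rose from background on both day 4 arrays to 8.97 and 8.58, at least 2.90-fold. It is the only member that passed the filter on dim probes through the adult islet arrays alone. Cela2a, Ctrb1, Prss3, Try4, Try5 and Try10 had positive differences between 1.53 and 2.01 that did not pass the test. The spread in that test was pooled over all 5 groups, and enzymes varied more at day 0 and day 1. With only day 4 and adult islets fitted, each of these genes was called higher in adult islets. On adult islet replicate 1, 13 of the 20 enzymes lay within 0.5 of the highest value on the array, and 10 did on replicate 2, while at most 2 did on any progenitor array. The part of this upper limit in the sizes of the differences was not tested.

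Cpa1 rose from 11.07 and 10.81 to 14.37 and 13.98 (3.24 ± 0.58) and Cpb1 from 10.91 and 10.29 to 14.60 and 14.41 (3.90 ± 0.69). Both pairs of groups were well apart. Among the lipid enzymes Cel rose from 8.67 and 8.42 to 14.61 and 13.92 (5.72 ± 0.72, 52.9-fold), and Pnliprp2 from background to 12.99 and 12.08, at least 39.2-fold. Pla2g1b rose from 9.22 and 9.01 to 13.36 and 12.38 (3.75 ± 0.48). Clps rose by 1.39 ± 0.40 (adjusted p = 0.0395), a call that was lost without either adult islet array, either day 4 array or day 1 replicate 3 (adjusted p of up to 0.206 over all settings). The dimmer Clps probe read 11.77 and 11.38 at day 4 and 14.32 and 13.49 in adult islets. Pnliprp1 did not pass the test (0.73 ± 0.26).

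Pancreatic ribonuclease (Rnase1) rose from 8.44 and 7.83 to 13.85 and 13.36 (5.47 ± 0.51). Amy1, the gene of the salivary type of amylase, stayed near background, at 7.42 and 7.24 in adult islets and below 7.24 at day 0 and day 4. The probe annotated to the pancreatic amylase Amy2a5, which is not among the 33 genes, gave 12.64 and 12.33 at day 4 and 14.77 and 14.75 in adult islets, and 13.12, 8.66, 8.18 and 11.90 at day 0. The day 0 arrays of Amy2a5 reached from 8.18 to 13.12, below and above both day 4 arrays.

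Zg16 rose from 8.65 and 8.09 to 14.59 and 14.16 (6.00 ± 0.64, 64.1-fold). Gp2 rose from 8.82 and 8.28 to 13.36 and 12.76 (4.51 ± 0.21, adjusted p = 3.08e-07). Dmbt1, Sycn and Cuzd1 rose by 4.41 ± 0.39, 4.22 ± 0.55 and 3.64 ± 0.20. Spink1, at 11.59 and 11.17 at day 4 and 13.36 and 12.26 in adult islets, did not pass the test (1.43 ± 0.69).

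In the fit to all 13 arrays none of the 4 factors was called between day 4 and adult islets. When only these 2 groups were fitted, Bhlha15 was called higher and Nr5a2 lower in adult islets. Ptf1a was 7.53 and 7.49 at day 4 and 7.69 and 7.26 in adult islets, just above background in both (-0.03 ± 0.43). Rbpjl was 7.78 and 7.70 and then 8.76 and 7.98 (0.63 ± 0.57), and Bhlha15 8.93 and 9.05 and then 9.43 and 9.83 (0.64 ± 0.29). Nr5a2 was above background at day 4 and on neither adult array. The per-array enzyme median less the factor median was 4.70 higher in adult islets than at day 4, a larger gap than that between the median differences of single genes (2.62 for the enzymes and 0.30 for the factors). Of the 17 calls in this comparison, 16 held in every setting run and that of Clps did not.

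Against day 0, adult islets had 22 of the 30 genes higher and 3 lower, where 34.1% of all genes were called, 14.7% higher and 19.4% lower. The groups did not overlap for 28 of the 30, where 56.1% of all genes had groups apart. Of the enzymes 17 rose, the other 3 being Pnliprp1, Clps and Amy1. Ctrl, above background on 1 of 4 day 0 arrays, rose by 7.33 ± 0.15 (adjusted p = 4.88e-10), Zg16 by 7.00 ± 0.55 (128-fold), and Gp2, Dmbt1 and Cuzd1 were at least 56.6-fold, at least 22.3-fold and at least 15.6-fold over the background level. These 3 granule and secreted proteins had been at background on all 4 day 0 arrays. Ctrl, Zg16 and Gp2 held the first 3 places among 10382 genes.

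The 3 genes that were lower in adult islets than at day 0 were all transcription factors. Ptf1a fell by 1.31 (SE 0.37, adjusted p = 0.0187), Rbpjl by 1.45 (SE 0.49, adjusted p = 0.0425) and Nr5a2 by 0.97 (SE 0.23, adjusted p = 0.00703, at least 1.84-fold lower). All 4 day 0 arrays of each were above both adult arrays. Each of these calls was lost without either adult array, which leaves 1 array in that group, as were the rises of Ctrb1, Prss3 and Cpa1. That of Rbpjl was lost in 10 of 13 omissions in all. Bhlha15 had a difference of 0.35 ± 0.25 and overlapping groups. The per-array enzyme median less the factor median was 5.83 higher than at day 0, where the median differences of single genes were 3.97 for the enzymes and -1.14 for the factors.

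Some markers of other cells and of handling also rose from day 4 to adult islets. All 8 endothelial markers tested rose. Their summed linear intensity was 1319 to 1363 at day 4, with 2 or 3 of 9 above background (not Pecam1, Cdh5, Kdr, Tek, Plvap and Emcn), and 7468 to 7988 in adult islets, with 8 of 9 above it (not Kdr). Of 7 immune markers tested 6 rose, from a sum of 1422 to 1424 with 3 of 8 above background (not Ptprc, Cd74, Lyz2, C1qb and Tyrobp) to 5667 to 10177 with 7 of 8 (not Ptprc). Of the 8 immediate early and heat shock genes 5 rose, from a sum of 2903 to 3378 with 5 of 8 above background (not Fosb, Atf3 and Ier2) to 6577 to 11643 with 7 of 8 (not Ier2). Of 6 ductal markers 0 rose and 0 fell, with sums of 3944 to 4516 and 3832 to 3844. Of 9 mesenchyme markers 0 rose and 0 fell, with sums of 5410 to 7648 and 3735 to 4488. Among 4 erythroid markers 1 rose and 0 fell. Their part in the rise of the exocrine genes was not tested.

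Other genes of the exocrine pancreas were read from another list of 26, of which 20 were on the array and 16 passed the filter. From day 4 to adult islets 9 rose and 0 fell. They include tissue kallikrein (Klk1, 4.89 ± 0.33), the trefoil peptide Tff2 (4.05 ± 0.30), and members of the regenerating lectin family, Reg1 (2.96 ± 0.66) and Reg2 (4.94 ± 0.16). From day 0 to day 4, 2 rose, Reg1 (2.32 ± 0.57) and Reg3b (1.06 ± 0.27), and the serpin Serpini2 fell by 0.83 (SE 0.23). Between day 0 and day 1 limma called 0, with 1 higher and 3 lower at an unadjusted p under 0.05.

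Partners and regulators of the acinar factors formed a list of 12, with 9 on the array and 5 that passed the filter. None was called between progenitor days, where 0 also passed an unadjusted p under 0.05, nor between day 4 and adult islets (1 higher and 1 lower unadjusted). Against day 0, adult islets had less of the pancreatic factor Gata6 (-1.59 ± 0.37, adjusted p = 0.00693) and more of Xbp1 (1.61 ± 0.29, adjusted p = 0.00149), which drives the secretory apparatus. Rbpj, the relative that Rbpjl replaces, was above background on no array of any group, ESC cells included. Its signal therefore cannot show whether Rbpj was absent from the pancreatic cells.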

How the data were processed

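The deposited log2 values of 13 Illumina arrays (25697 probes, values from 6.73 to 15.20) were used as the authors gave them. They had been normalized between arrays by a method not given in the sources used here, and that the logarithm has base 2 follows from their range alone. Per the labels' protocols, RNA was extracted with Trizol, checked on a Bioanalyser and labelled as biotinylated cRNA with the Illumina TotalPrep kit. The 26 columns of per-sample values in a non-normalized table matched no sample by name and were not used.

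Probe annotation named 1 gene for 23978 probes and none for 1719. The background level was the mode of the values (6.98) plus 5 times the SD below it (0.052). Probes above it on at least 2 of 13 arrays were kept (14946 probes), and each gene took its brightest probe by the mean over all arrays (10382 genes). A linear model with 5 group means was fitted with limma 3.58.1 in R 4.3.3 (8 residual degrees of freedom, 2.94 prior), and p-values were adjusted by Benjamini-Hochberg over all genes. For a group with no array above background the fold is "at least" the ratio to the background level, taken once per array. The number of arrays limits the precision.

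All 30 members on the array are described, and genes of the other lists are named where they were called or where a result turns on them. Cela2a, Gp2, Rbpjl, Cela1 and Cel were picked for printing, and Amy2a5 was added, after their values were seen. The members and lists were chosen with earlier results of these data known. On data simulated for 10382 genes, 55% to 81% of 100 genes changed 2-fold and 92% to 98% of 100 changed 4-fold were recovered, and 3.83% to 6.29% of calls were false, over the comparisons. The simulated noise was independent between arrays, with 1 spread per gene for all groups. In the data the spread differed between groups and arrays moved together, so these rates check the procedure and need not hold for the data. Replicate numbers were checked as pairs: 3 of 21 same-number pairs correlated over 0.1 (range -0.31 to 0.29), so the number was not used as a pairing. Stronger correlations stood between different numbers. Day 0 replicate 3 had 0.55 with day 1 replicate 2 and -0.40 with day 1 replicate 1. Day 0 replicate 4 had 0.37 with day 1 replicate 3 and -0.29 with day 1 replicate 2. A pairing or batch under other labels was not tested, and the p-values treat the arrays as independent. Alternatives varied the filter, normalization, background, probe choice, variance prior, samples, array weights, replicate block and single arrays. The comparisons by the lower end of the arrays and the omissions for the enzyme and factor medians were added after seeing the data.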

Additional observations from a re-analysis of the deposited data

How the results depend on the processing

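No called difference of the 30 genes changed sign in any setting run. Over 70 calls and 1888 settings, 1767 kept the call and 121 lost it, and 110 differences that were not called became calls in 102 of 3026 settings. Leaving out each array in turn gave the following ranges of genes called and of the 30 called: 202 to 551 and 0 to 6 (day 1 less day 0), 193 to 1427 and 1 to 9 (day 4 less day 0), 8 to 359 and 0 to 4 (day 4 less day 1), 675 to 1743 and 16 to 19 (adult islets less day 4), 1922 to 3823 and 19 to 26 (adult islets less day 0), and 4256 to 5202 and 17 to 22 (day 0 less ESC). The per-array enzyme median less the factor median ranged over 0.40 to 1.17, 1.01 to 1.27, -0.03 to 0.73, 4.48 to 4.92, 5.61 to 6.05 and 0.79 to 1.03 in the same order, and with the background subtracted it became 2.32 for day 4 less day 0, 1.26 for day 4 less day 1, 7.20 for adult islets less day 0 and 1.79 for day 0 less ESC, where the reported values were 1.13, 0.36, 5.83 and 0.93. The cause was not tested.

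For day 1 against day 0 (454 genes and 0 of the 30), fitting only the 2 groups gave 168 genes, and array weights 1036 genes and 2 of the 30. Leaving out both day 1 replicate 2 and day 0 replicate 3 gave 260 genes. Within the arrays with raised and other lower ends 229 and 43 genes were called, with 5 and 0 of the 30. The stricter filter and background subtraction each gave 1 of the 30, and an intensity trend 2. For day 4 against day 0 (1188 genes and 5 of the 30), array weights gave 2970 genes and 12 of the 30, no filter 2 and the lower-end block 3. Leaving out both day 1 replicate 2 and day 0 replicate 3 gave 10 of the 30. For day 4 against day 1 (161 genes and 1 of the 30), the 2 groups alone gave 14 genes and 0, array weights 2892 and 12, and the lower-end block 49 genes. For adult islets against day 4 (1501 genes and 17 of the 30), the 2 groups alone gave 4066 genes and 27, and array weights 3981 and 27.

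With the replicate number as a block (replicate block), 235 genes were called for day 1 against day 0, 570 genes and 2 of the 30 for day 4 against day 0, and 23 genes and 0 of the 30 for day 4 against day 1. The labels do not say that the numbers pair the samples. Correlations of same-number arrays cannot settle it, since in groups of 2 arrays the deviations mirror each other. There were 2 arrays in 3 of the 5 groups, and the median SD of an enzyme was 0.72 at day 0 and 1.05 at day 1, so a missed threshold among progenitor days does not show that levels were alike. Values near 7.24 carry no order.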

Other observations

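The genes whose levels followed the enzyme median most closely over the 13 arrays were found by Pearson's r, as a description over arrays that share their groups and their normalization. Outside the 30 genes they were Gm5771 (0.967), Sel1l (0.957), Plxna2 (0.948), Tff2 (0.943), Mat1a (0.939), Hgfac (0.937), Arhgap24 (0.934) and Samd4 (0.933). Gm5771 lies beside Prss3 in the trypsinogen cluster on chromosome 6, and Sel1l is a part of the machinery that removes misfolded proteins from the endoplasmic reticulum.

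The islet regeneration gene Reg1 gave 7.11 and 7.15 in ESC cells, 10.17, 9.24, 8.47 and 9.37 at day 0, 8.94, 11.24 and 10.90 at day 1, 11.78 and 11.48 at day 4 and 14.69 and 14.48 in adult islets. Its day 4 arrays lay above all earlier arrays and below both adult arrays. Day 0 replicate 3 was its lowest array of that day and day 1 replicate 2 its highest of the next, the same arrays as for most enzymes.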
